A study of Canis lupus familiaris with 18 samples.

Results

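The genes described here are 9 genes of the complement system, chosen by symbol: the C1q chains C1QA, C1QB and C1QC, the proteases C1R and C1S, the inhibitor SERPING1, the central component C3, and the receptors C3AR1 and C5AR1. They are 9 of the 29993 genes in the table of read counts, and all 9 were among the 16403 genes that passed the filter on low counts. RNASeq had been run on archived blocks, fixed in formalin and embedded in paraffin, of high grade oligodendroglioma (HGO), a glioma of dogs, in the prosencephalon. There were 11 French bulldogs and a comparison group of 7 dogs, made up of 4 boxers (comparison numbers 1, 3, 4 and 5) and 3 Boston terriers (2, 6 and 7). The study contrasted breeds because treated French bulldogs had fared worse than the related breeds, and asked whether their tumours differ in expression. All were spontaneous tumours of pet dogs sampled by biopsy, no unaffected brain was analysed here, and age, which the labels do not give, was not used here. The paper states that age, sex and tumour site were not matched between the groups, so they cannot be told apart from breed here.

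Complement is a cascade of plasma and tissue proteins that tags cells and debris and recruits immune cells. In the classical pathway C1q, built from the A, B and C chains, binds its target and activates C1r, which cleaves C1s, and SERPING1 (C1 inhibitor) blocks both proteases. The cascade converges on C3, and the fragments released from C3 and C5 act on the receptors C3AR1 and C5AR1 of myeloid cells. In brain, C1q and C3AR1 are known as products of microglia and macrophages, while C1R, C1S and SERPING1 are made by many cell types, including astrocytes and stromal cells.

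Total counts were 8212452 to 13169880 per library, so that 3 counts, the level below which a gene was taken as not detectable, corresponded to between 0.223 and 0.350 CPM (counts scaled to a common library total) after normalization. These floors cover counting error only. All levels are CPM normalized by the trimmed mean of M values (TMM). They compare 1 gene between dogs and not different genes, since transcript lengths were not used.

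The libraries of 3 French bulldogs stood apart and bear on every result that uses them. French bulldog 6 went against its label. The defining oligodendrocyte lineage gene OLIG2 had 0 counts in it, and the 7 oligodendrocyte lineage markers found, of 8 listed, summed to 61.4 CPM, compared with 2100 to 8297 CPM in the other 17 dogs. It is therefore given apart, and comparisons use 10 French bulldogs unless it is named. The libraries of French bulldogs 2 and 8 carry the same case number in their labels. Their counts differed by more than counting noise (chi-square per degree of freedom 9.41), but this was the smallest value of any pair, since the other 135 pairs of these 17 dogs gave 28.5 to 177. The study also lists the same age, sex and tumour site for both. They were counted as 2 dogs, so the number of distinct animals may be lower by 1, and values without them or with them summed are given where they matter.

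The C1q chains spanned a wide range among French bulldogs. C1QA was 4.55 CPM at the lowest (French bulldog 4), 17.4 at the median and 43.6 at the highest (French bulldog 1). In the comparison group it was 9.397, 22.0, 17.0 and 17.8 CPM in boxers 1, 3, 4 and 5 and 14.25, 7.76 and 16.1 in Boston terriers 2, 6 and 7. The groups overlapped, with 3 French bulldogs above and 1 below the whole comparison range, and the French bulldogs spread further in both directions.

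C1QB followed the same order at its ends. Its levels were 7.99, 22.5 and 68.0 CPM at the lowest, median and highest French bulldog, and 10.7, 19.97 and 34.6 CPM in the comparison group. C1QC ran from 10.3 CPM through a median of 26.5 to 98.1 CPM in French bulldogs, and from 11.8 through 27.7 to 37.4 CPM in comparison dogs. For all 3 chains French bulldog 4 was the lowest and French bulldog 1 the highest of the French bulldogs, and Boston terrier 6 and boxer 3 were the ends of the comparison group.

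The proteases C1R and C1S had a different shape. C1R was 3.67 CPM in French bulldog 2, 4.77 in French bulldog 8 and 18.6 in French bulldog 9, while the other 7 French bulldogs lay between 51.7 and 105 CPM. In the comparison group it was 73.2, 95.6, 40.1 and 69.7 CPM in boxers 1, 3, 4 and 5 and 102, 64.5 and 72.1 in Boston terriers 2, 6 and 7. Only these 3 French bulldogs fell below the comparison range.

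C1S had the same 3 dogs at its low end. It was 7.67 CPM in French bulldog 2, 10.9 in French bulldog 8 and 44.1 in French bulldog 9, with the other 7 French bulldogs between 90.8 and 159 CPM and comparison dogs between 86.3 and 187 CPM. Measured against the median of the other 15 dogs, 69.7 CPM for C1R and 118 CPM for C1S, French bulldog 2 was 18.98-fold lower for C1R and 15.4-fold lower for C1S. French bulldog 8 was 14.6-fold and 10.9-fold lower. The counts behind these values were small but well above the floor, at 33 and 47 reads for C1R and 69 and 107 for C1S.

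SERPING1, the inhibitor of these proteases, was the steadiest of the 8 genes detected in every one of the 17 dogs, with a 3.62-fold distance between the lowest and the highest dog and a coefficient of variation of 34.6%. French bulldogs had 16.3, 26.7 and 58.8 CPM at the lowest, median and highest dog, and comparison dogs 23.4, 26.2 and 33.0. French bulldogs 2 and 8, so low for C1R and C1S, had 31.5 and 35.8 CPM of SERPING1 and ranked 13 and 16 of the 17 dogs counted from the lowest.

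C3, on which the pathways of complement converge, varied widely in both groups. French bulldogs had 19.9 CPM at the lowest (French bulldog 8), 56.4 at the median and 290 at the highest (French bulldog 11). Boxers 1, 3, 4 and 5 had 52.3, 192, 182 and 61.5 CPM and Boston terriers 2, 6 and 7 had 71.9, 34.5 and 214. The highest level was 14.6-fold the lowest over the 17 dogs, and 4 French bulldogs lay below and 1 above the whole comparison range.

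Of the receptors, C3AR1 binds the C3a fragment and C5AR1 the C5a fragment. C3AR1 was 5.02, 13.8 and 35.8 CPM at the lowest, median and highest French bulldog and 2.67, 15.8 and 22.7 CPM in the comparison group, where Boston terrier 6 had the lowest level and the other 6 dogs at least 10.9 CPM. C5AR1 was close to the limit of detection, with 0 counts in French bulldog 2, which allows up to 0.334 CPM, and at most 71 reads in any of the 17 dogs. Its median was 1.30 CPM in French bulldogs, with a highest level of 4.06, and 2.00 CPM in the comparison group, where it ran from 0.375 to 5.92 CPM.

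**Figure D1:**
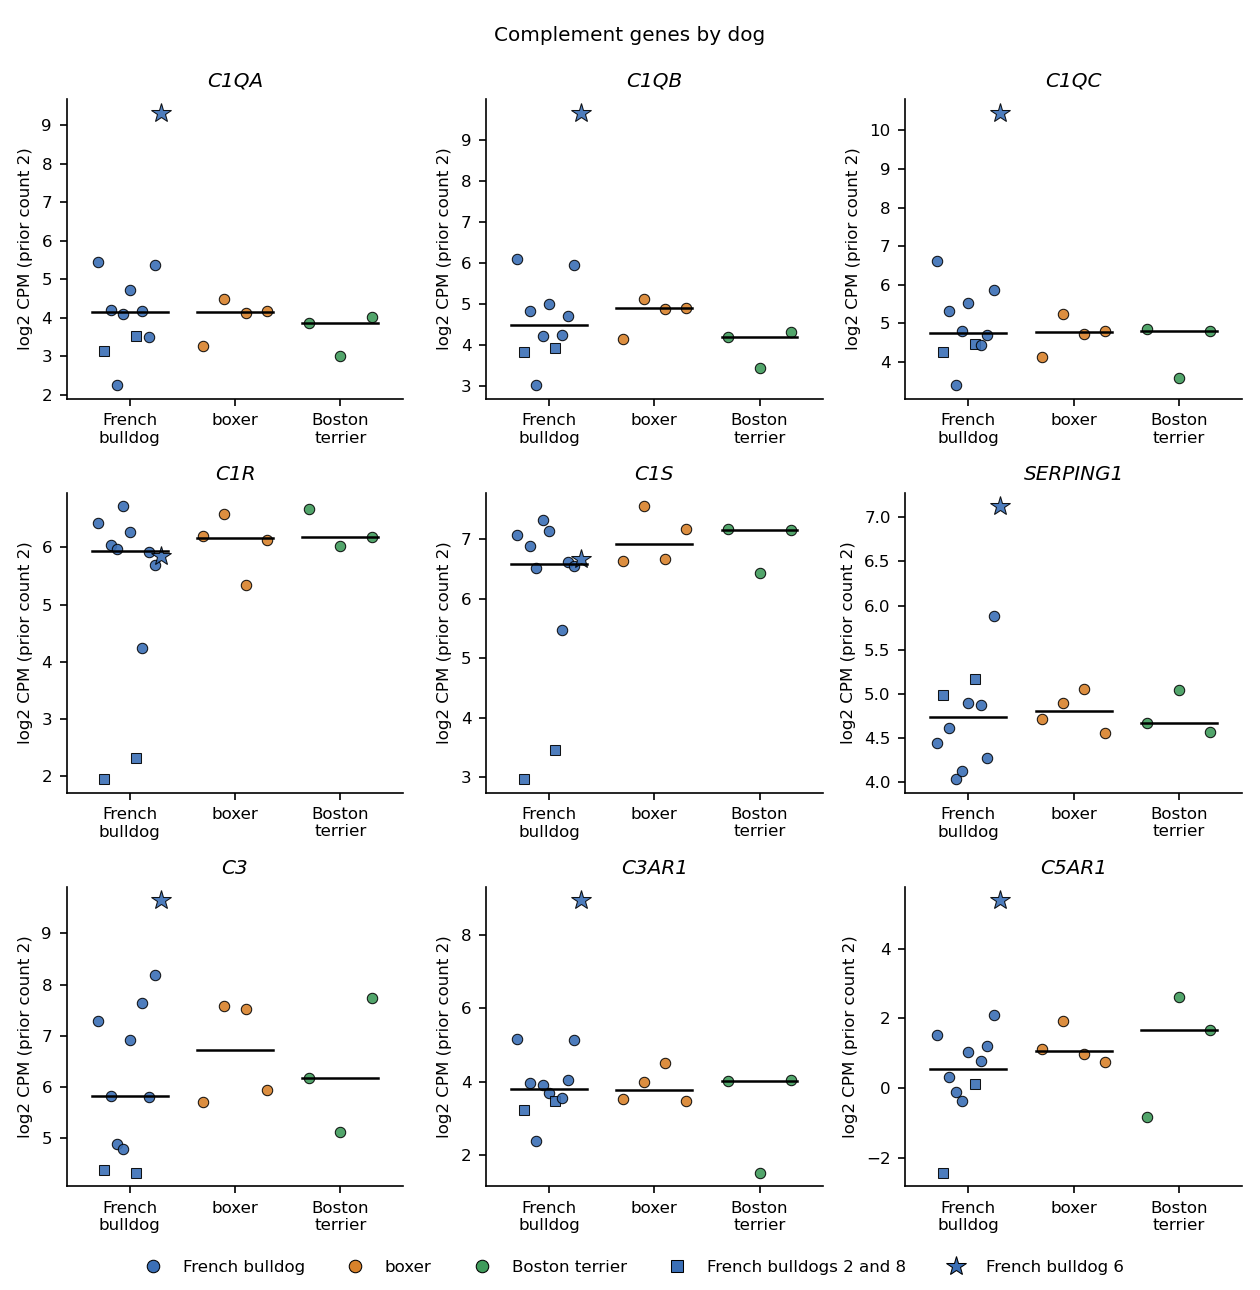
Level of each complement gene in each dog, as log2 CPM with a prior count of 2, by breed; bars are medians without French bulldog 6. French bulldog 6 (star) lies above all other dogs for 7 genes but within their range for C1R and C1S, and French bulldogs 2 and 8 (squares) are the lowest for C1R, C1S and C3.

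Between breeds, none of the 9 genes differed beyond the spread between dogs. In edgeR's quasi-likelihood test over 16403 genes, 0 of the 9 had an adjusted p under 0.05 and 0 of 9 an unadjusted p under 0.05. Over all genes tested the shares were 0.0183% (3 genes) at the adjusted and 10.4% at the unadjusted threshold. DESeq2 and limma-voom also called 0 of the 9 at either threshold. Over all genes they called 76 and 3 at the adjusted threshold, and 2538 of 27016 and 1559 of 16403 at the unadjusted one. The p-values measure only the spread between these dogs. French bulldog libraries carry the numbers 1 to 8 and 10 to 12 in the labels. Comparison libraries carry 18 to 21 and again 1 to 3. What the numbers stand for is not given, so breed and a possible library series cannot be fully told apart. Fold changes were up in French bulldogs for 5 genes and down for 4, with a median log2 fold change of 0.04, next to 0.02 over all genes tested.

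The C1q chains were estimated slightly higher in French bulldogs, by a log2 fold change of 0.42 for C1QA (SE 0.38, adjusted p = 0.727), 0.35 for C1QB (SE 0.38, adjusted p = 0.785) and 0.54 for C1QC (SE 0.37, adjusted p = 0.635). Against boxers alone C1QB was 0.065, and against Boston terriers alone 0.85. C1R and C1S were estimated lower, at -0.47 (SE 0.49, adjusted p = 0.774) and -0.52 (SE 0.45, adjusted p = 0.709). For C1R and C1S without French bulldogs 2 and 8, a choice made after their values were seen, the values became -0.17 and -0.23, and with limma-voom they were -1.004 and -0.97. SERPING1 was at 0.04 (SE 0.22, adjusted p = 0.973), with a 95% interval of -0.44 to 0.51, the narrowest of the 9. C3 stood at -0.25 (SE 0.57, adjusted p = 0.925), C3AR1 at 0.28 (SE 0.39, adjusted p = 0.843) and C5AR1 at -0.73 (SE 0.57, adjusted p = 0.675). A missing call does not show equal levels, since the intervals reached from a 3.82-fold lower to a 2.50-fold higher level in French bulldogs.

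Adding French bulldog 6 changed this picture for the genes that are high in it. In the fit with all 18 dogs, 4 of the 9 genes had an unadjusted p under 0.05, all higher in French bulldogs, where 10.6% of the 16495 genes tested had such a p and 7.02% were also higher. The log2 fold changes became 2.35 for C1QA, 2.12 for C1QB, 2.67 for C1QC and 2.13 for C3AR1, with adjusted p between 0.433 and 0.442 in edgeR's test. C3 turned from -0.25 to 0.48 and C5AR1 from -0.73 to 0.98, while C1R and C1S stayed at -0.46 and -0.51. DESeq2, which replaces counts of single far libraries, gave 0 of the 9 with an unadjusted p under 0.05 in the same 18 dogs. Over all genes in that fit, 2616 of 27192 had such a p. Its log2 fold changes were 0.42, 0.34, 0.53 and 0.28 for C1QA, C1QB, C1QC and C3AR1, and 0.51 and 0.53 for SERPING1 and C3.

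**Figure D2:**
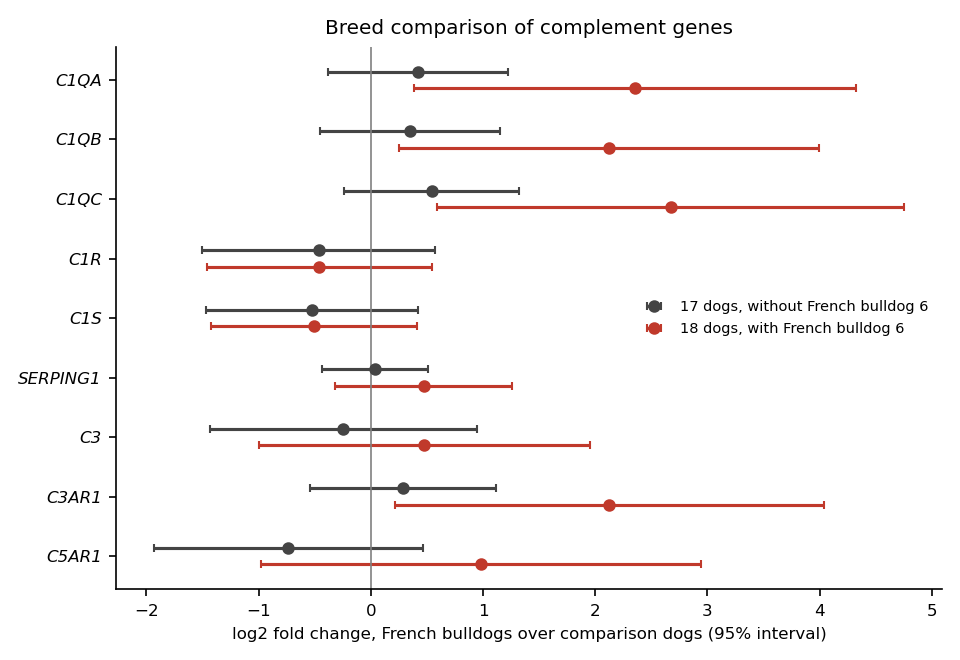
Log2 fold change of each complement gene, French bulldogs over comparison dogs, with 95% intervals from edgeR's quasi-likelihood fit, without (grey) and with (red) French bulldog 6. All 9 intervals without French bulldog 6 include 0, and with it those of C1QA, C1QB, C1QC and C3AR1 do not.

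The boxers and Boston terriers pooled in the comparison group were also set against each other. Of the 9 genes, 0 had an adjusted p under 0.05 (0.0% of 16633 genes tested) and 1 an unadjusted p under 0.05 (6.23% of the genes tested). That gene was C1QB, with 17.5, 34.6, 29.1 and 30.0 CPM in boxers and 18.2, 10.7 and 19.97 CPM in Boston terriers, which overlapped. Its log2 fold change was 0.75 in favour of boxers (SE 0.32, edgeR adjusted p = 0.795), and its unadjusted p was over 0.05 without boxer 3, 4 or 5 or Boston terrier 6. The other 8 genes had unadjusted p-values of at least 0.352. DESeq2 called 0 of the 9 genes at the adjusted threshold, next to 39 over all genes. At an unadjusted p under 0.05 it called 1 of the 9, next to 1349 of 25255 genes.

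French bulldog 6 held by far the highest C1q levels of the series. C1QA was 643 CPM, C1QB 811 CPM and C1QC 1413 CPM, which is 38.0-, 40.6- and 51.5-fold the median of the other 17 dogs and 14.7-, 11.9- and 14.4-fold the highest of them. C3AR1, at 494 CPM, was 33.3-fold the median. C5AR1 was 41.6 CPM (23.0-fold), C3 801 CPM (13.0-fold) and SERPING1 139 CPM (5.32-fold).

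These 7 genes lay above all other dogs, an order that 20.9% of all genes tested also showed. For C1QA, C1QB, C1QC and C3AR1 the level was at least 10-fold above every other dog, which 0.975% of genes reached. C1R and C1S did not share the rise. C1R was 57.4 CPM and C1S 101 CPM in French bulldog 6, or 0.871 and 1.00 times the median of the other dogs. These are values of 1 library, with no replicate.

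The marker genes of other cell types in French bulldog 6 moved in the same library. The 13 macrophage and microglia markers found, of 14 listed, summed to 6338 CPM, against 67.5 to 339 CPM in the other French bulldogs and 112 to 205 CPM in comparison dogs, and none of the 13 was at 0. This sum was 39.0-fold the median of the other dogs. Of the 13, 10 were above all other dogs, among them TMEM119 at 7.73 CPM against at most 6.47, and P2RY12, CX3CR1 and TREM2 were not. CD163, a scavenger receptor of macrophages, was 2906 CPM against at most 40.5 CPM elsewhere, while the microglial receptors P2RY12 and CX3CR1 were 6.89 and 2.51 CPM, compared with 4.21 to 27.4 CPM and 11.5 to 55.8 CPM in the other dogs, and TREM2 was 5.54 CPM, compared with 2.00 to 13.1 CPM.

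Astrocyte markers (4 of 5 found) summed to 9.4005 CPM in French bulldog 6, against 500 to 5244 CPM in the other 17 dogs, and neuron markers (5 of 5) to 0.731 CPM against 52.7 to 1064, with GAD1 at 0. Endothelial markers (4 of 5) were at 245 CPM, inside the range of 122 to 759 CPM. Fibroblast and mural cell markers (6 of 7) reached 874 CPM, next to 36.1 to 831 CPM, T cell markers (6 of 6) 136 CPM, next to 2.15 to 45.4, and neutrophil markers (4 of 5) 48.9 CPM, inside 7.94 to 140. The part of these cell types in the complement levels was not tested. In bulk tissue, fewer cells of a type and less RNA per cell cannot be told apart.

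French bulldogs 2 and 8 were the lowest of the 17 dogs for C1R, C1S and C3, an order that 12.4% of all genes tested showed. Both were at least 3-fold below each of the other 15 dogs for C1R and C1S, which held for 1.07% of genes. For the C1q chains they were inside the range, with C1QA at 8.56 and 11.4 CPM, 1.988- and 1.498-fold below the median of the other 15 dogs. Their fibroblast and mural cell markers summed to 41.7 and 36.1 CPM, the lowest of the 17 dogs. Their astrocyte markers (500 and 603 CPM) and endothelial markers (122 and 124 CPM) were also the lowest, and their macrophage and microglia markers summed to 75.4 and 89.0 CPM. Their oligodendrocyte lineage markers, at 6762 and 6806 CPM, were above all of the 17 dogs except French bulldog 9. French bulldog 9, the third dog below the comparison range for C1R and C1S, had the highest astrocyte sum (5244 CPM), with endothelial markers at 264 CPM and fibroblast and mural cell markers at 138 CPM. The part of these in the low C1R and C1S levels was not tested.

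**Figure D3:**
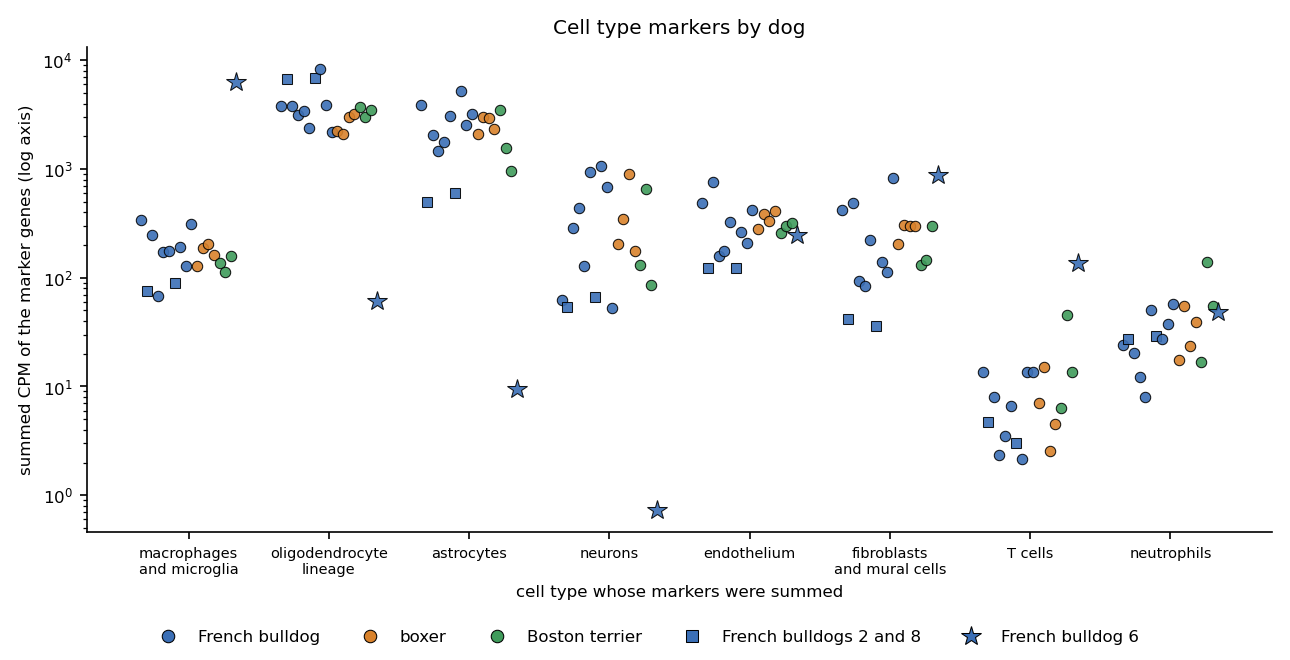
Summed CPM of the marker genes of 8 cell types in each dog, on a log axis. French bulldog 6 (star) is highest for macrophages and microglia at 6338 CPM and lowest for the oligodendrocyte lineage at 61.4 CPM, and French bulldogs 2 and 8 (squares) are the lowest of the other 17 dogs for fibroblasts and mural cells, endothelium and astrocytes.

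The marker genes were compared between the groups without French bulldog 6. In edgeR's test 0 of the 45 marker genes that passed the filter had an adjusted p under 0.05, and 5 had an unadjusted p under 0.05, all lower in French bulldogs: TMEM119, OLIG2, CD4, S100A12 and CSF3R. Over all genes tested, 4.65% were lower in French bulldogs with such a p. Their log2 fold changes were -1.06, -0.39, -1.76, -2.16 and -2.69. Boston terrier 6 had the highest levels of the comparison group for CD4 (44.8 CPM), S100A12 (20.9 CPM) and CSF3R (96.0 CPM). Its neutrophil and T cell markers summed to 140 and 45.4 CPM, the highest of the 17 dogs. CD4 alone gave 44.8 of the 45.4 CPM in the T cell sum. CD3D, CD3E, CD3G and CD8A were at most 0.188, 0.431, 0.476 and 0.182 CPM in comparison dogs.

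Across the 17 dogs, the genes fell into sets that varied together. Of the 36 pairs among the 9 genes, 12 had an adjusted p under 0.05 in a permutation test of Pearson's r, and all 12 were positive. Spearman's rho, given after r, called 12 as well. Without French bulldogs 2 and 8, r called 11 pairs and rho 4, and with them summed r called 10 and rho 9. Each r was also computed without the 2 dogs farthest from the median of the gene named first. The dogs share the assay and the normalization, and r describes covariation of levels only. The share of pairs of other genes that pass was not computed, so the count of 12 is not shown to be particular to these genes.

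The C1q chains formed a set of 3. C1QA and C1QC had r = 0.94 (rho = 0.89), C1QA and C1QB r = 0.93 (rho = 0.92), and C1QB and C1QC r = 0.94 (rho = 0.88). Each r had a permutation p of 1e-05, the smallest that 100000 resamples can give, and an adjusted p of 9e-05. With the 2 farthest dogs left out, r was 0.91, 0.88 and 0.90, and within the comparison group alone it was 0.96, 0.92 and 0.86. These 3 genes lie next to each other in the order of the RefSeq annotation.

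C3AR1 varied with the C1q chains, with r of 0.81, 0.85 and 0.85 for C1QA, C1QB and C1QC (rho 0.65, 0.75 and 0.72; permutation p = 0.00018, 8e-05 and 7e-05; adjusted p = 0.000926, 0.00048 and 0.00048). These fell to 0.71, 0.76 and 0.79 without the 2 farthest dogs. With C3, r was 0.72, 0.70 and 0.60 (rho 0.69, 0.72 and 0.58; permutation p = 0.00069, 0.0017 and 0.0109; adjusted p = 0.0031, 0.0068 and 0.0326), and without the 2 farthest dogs the relations with C1QB (r = 0.61) and C1QC (r = 0.56) no longer passed. C1QC with C3 also missed the threshold without French bulldogs 2 and 8 (r = 0.59, permutation test, adjusted p = 0.0581) and with them summed (r = 0.59, adjusted p = 0.0505). Within the 7 comparison dogs no relation of C3AR1 or C3 with a C1q chain passed. For C1QA, C1QB and C1QC, C3AR1 there had r of 0.76, 0.75 and 0.83 (exact permutation test, adjusted p = 0.128, 0.171 and 0.133). C3 had r of 0.79, 0.67 and 0.76 (exact permutation test, adjusted p = 0.128, 0.281 and 0.128). C3 with C3AR1 (r = 0.63, rho = 0.70, permutation p = 0.00465, adjusted p = 0.0167) fell to r = 0.55 without the 2 farthest dogs and no longer passed, while without French bulldogs 2 and 8 it was 0.65 and passed. C3 with C5AR1 (r = 0.59, rho = 0.56, permutation p = 0.0108, adjusted p = 0.0326) was 0.50 without the 2 farthest dogs, 0.45 without French bulldogs 2 and 8 and 0.54 with them summed, and passed in none of these. It was 0.79 within French bulldogs and 0.03 within comparison dogs, a difference that was not tested.

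C1R and C1S, which are also neighbours in the annotation, formed a second set. Their pooled r of 0.98 (rho = 0.88, permutation p = 1e-05, adjusted p = 9e-05) included the separate position of French bulldogs 2 and 8. In the other 15 dogs r was 0.89, and without French bulldog 9 as well, a choice made after its values were seen, it was 0.74 over 14 dogs (rho = 0.78, permutation p = 0.00209). Within the 7 comparison dogs r was 0.64, with an adjusted p of 0.281 in an exact permutation test. The number of C1R reads per C1S read lay between 0.397 and 0.748 in all 18 dogs, and was 0.478 and 0.439 in French bulldogs 2 and 8 and 0.566 in French bulldog 6. French bulldogs 2, 8 and 9, the lowest for both genes, had 3 of the 4 lowest ratios.

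None of the 6 relations between a C1q chain and C1R or C1S passed, with r between 0.28 and 0.38, although their products assemble into 1 complex. SERPING1 passed with none of the other 8 genes. Its r was -0.38 with C1R and -0.33 with C1S.

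**Figure D4:**
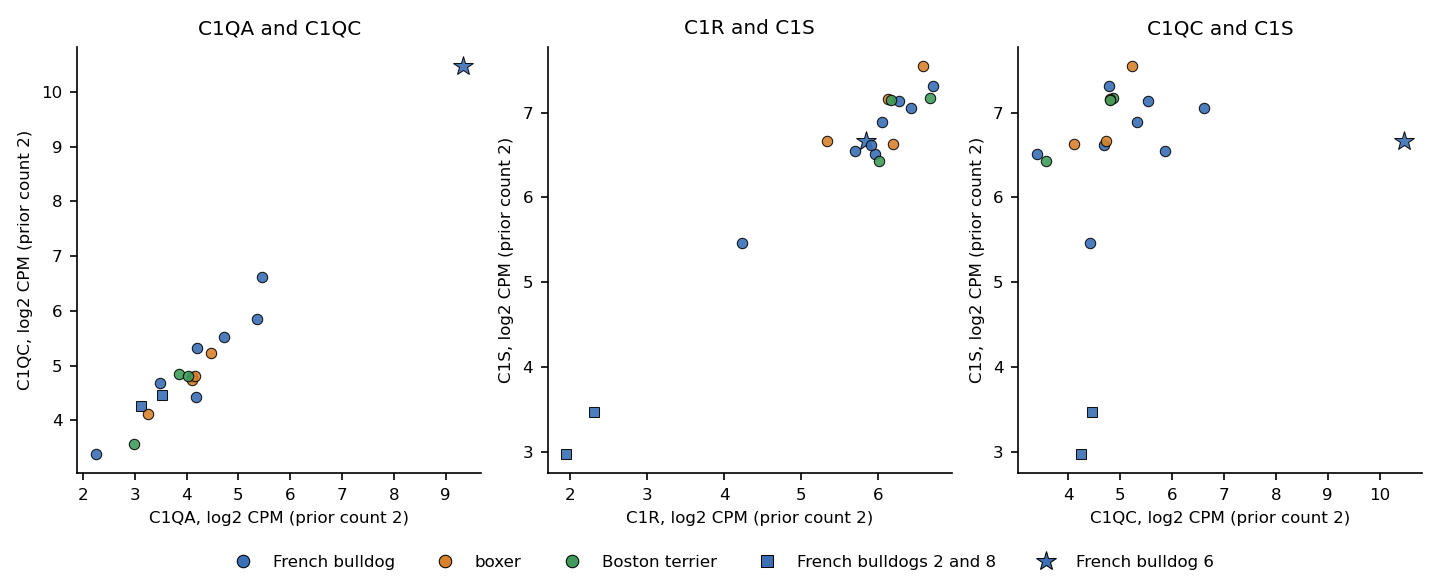
Levels of C1QA and C1QC, C1R and C1S, and C1QC and C1S in each of the 18 dogs, as log2 CPM with a prior count of 2. C1QA and C1QC rise together up to French bulldog 6 (star), C1R and C1S fall together in French bulldogs 2 and 8 (squares), and C1QC against C1S shows these dogs displaced along separate axes.

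Each gene was also compared with 8 marker genes of cell types that a glioma sample can hold. Of 72 relations, 36 passed in the permutation test, all positive, and 27 by rho. The share of all genes that pass with these 8 markers was not computed, so the count is not shown to be particular to complement genes. Without the 2 farthest dogs 22 passed by r, of which 21 were positive and 1, SERPING1 with CD163, was negative (r = -0.71). With French bulldog 6, 42 passed and 35 of these were positive; the negative ones were all with OLIG2. The number was 28 within French bulldogs, 3 within the 7 comparison dogs, 22 without French bulldogs 2 and 8 and 25 with them summed.

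Among the 8 markers, the C1q chains had their highest r with CSF1R, the growth factor receptor of microglia and macrophages, and AIF1, a calcium-binding protein of the same cells. For C1QA, r was 0.88 with CSF1R (rho = 0.89) and 0.88 with AIF1 (rho = 0.85), each with a permutation p of 1e-05 and an adjusted p of 0.00018. Without the 2 farthest dogs they were 0.85 with CSF1R and 0.86 with AIF1. C1QB had r = 0.85 with both, and C1QC 0.77 with CSF1R and 0.84 with AIF1, which without the 2 farthest dogs were 0.81 and 0.73 for C1QB and 0.70 and 0.79 for C1QC. C3AR1 had r = 0.70 with CSF1R and 0.83 with AIF1 (for AIF1, rho = 0.82, permutation p = 4e-05, adjusted p = 0.000411), and C3 had r = 0.87 with CSF1R (rho = 0.86, permutation p = 1e-05, adjusted p = 0.00018). P2RY12 passed with none of the C1q chains. C3 was the 1 gene of the 9 that passed with it.

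C1R and C1S passed with COL1A2, a fibrillar collagen chain of stromal cells, at r = 0.70 (rho = 0.31, permutation p = 0.00341, adjusted p = 0.0112) and 0.76 (rho = 0.50, permutation p = 0.00103, adjusted p = 0.0057). These relations rested on French bulldogs 2 and 8, without which r was 0.07 and 0.27. C3 with the astrocyte protein GFAP had r = 0.67 (rho = 0.65, permutation p = 0.00382, adjusted p = 0.012). It was 0.93 within French bulldogs and -0.08 within comparison dogs, and -0.14 with French bulldog 6 added. Without French bulldogs 2 and 8, which are low for C3 and for astrocyte markers, it was 0.48 and no longer passed (adjusted p = 0.163 in the permutation test). With these dogs summed it was 0.60 and passed, and without the 2 farthest dogs it was 0.84. The difference between the groups was not tested.

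**Figure D5:**
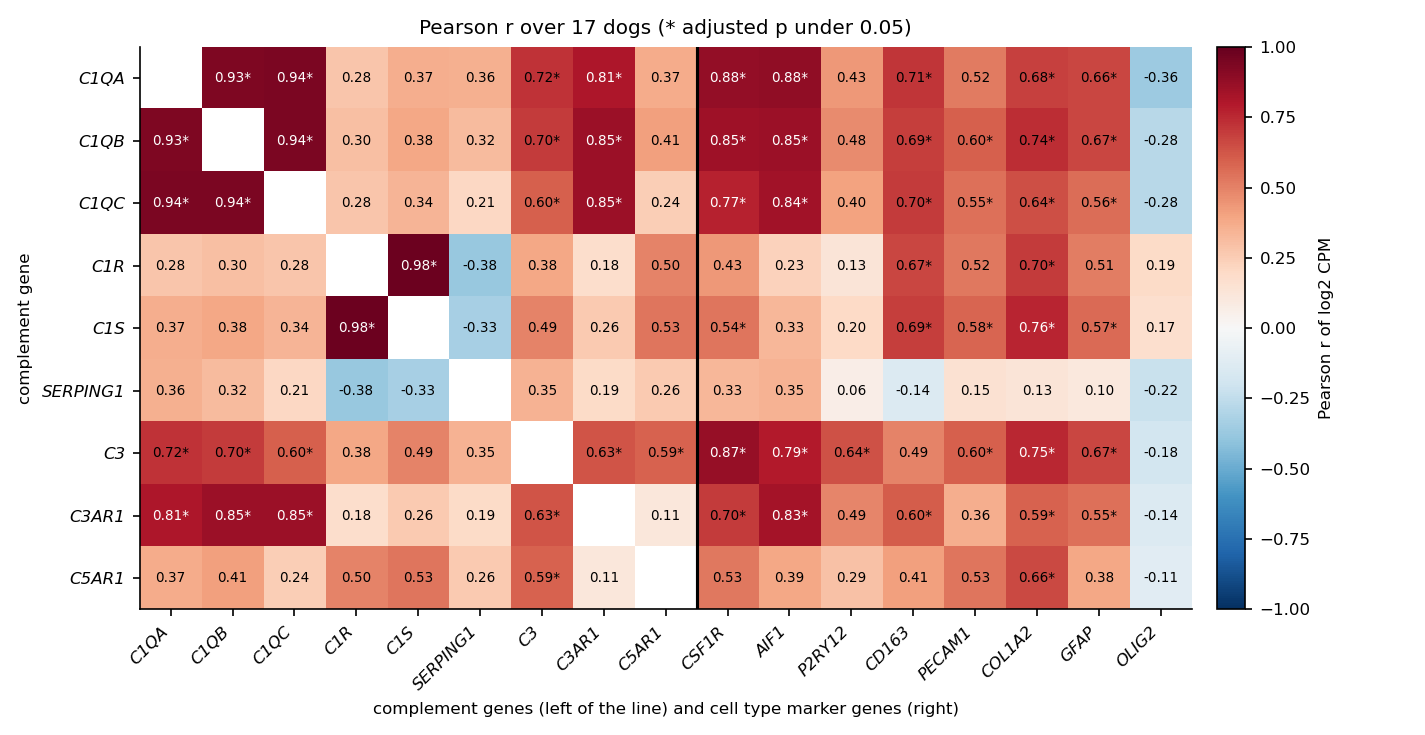
Pearson r of log2 CPM over 17 dogs between the 9 complement genes and, right of the line, 8 cell type markers; a star marks an adjusted p under 0.05. The C1q chains form a block at 0.93 to 0.94, C1R and C1S stand together at 0.98, and SERPING1 passes with no gene.

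The genes most like each of the 9 were sought among 11543 genes with a symbol, by Pearson r over the 17 dogs and with no test. For the C1q chains these were FCMR (r = 0.89), ADAM28 (0.89) and AIF1 (0.88) for C1QA, the co-stimulatory ligand CD86 (0.92), ADAM28 (0.92) and PIK3AP1 (0.91) for C1QB, and ADAM28 (0.92), the phagocyte oxidase subunit CYBB (0.89) and ADAP2 (0.86) for C1QC. C3AR1 was closest to the lysosomal proteases CTSS (0.88) and CTSC (0.85) and to CD86 (0.85). C3 was closest to BHLHE41 (0.91), INPP5D (0.89) and ST14 (0.88).

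For C1R the closest were SH3BGRL (0.95), ZC3HAV1 (0.94) and GTF2I (0.94), and those for C1S included APOOL (0.94) and ZC3HAV1 (0.94). Without French bulldogs 2 and 8 these fell to between 0.53 and 0.68, except for SH3BGRL at 0.89. SERPING1 was closest to NPEPL1 (0.88), TNKS1BP1 (0.86) and MRPL49 (0.86), and C5AR1 to ARHGAP45 (0.89), ADH5 (0.88) and GMFG (0.86). Without French bulldogs 2 and 8 those of C5AR1 fell to 0.82, 0.78 and 0.73, while those of SERPING1 were 0.90, 0.87 and 0.85.

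Of 36 further complement genes listed, 25 had a row in the table and 16 passed the filter. In the breed comparison 5 of the 16 were up and 11 down, with a median log2 fold change of -0.15 beside 0.02 over all genes. None had an adjusted p under 0.05 in edgeR's test and 0 an unadjusted p under 0.05. Over all genes tested these shares were 0.0183% and 10.4%. With all 18 dogs 2 of the 16 had an unadjusted p under 0.05, and both were higher in French bulldogs, as 7.02% of all genes tested in that fit were: ITGB2, a subunit of complement receptors on leukocytes, and VSIG4, a macrophage receptor for C3 fragments. In French bulldog 6 they were at 361 and 216 CPM, against at most 19.88 and 20.03 CPM in the other dogs. The properdin gene CFP was at 111 CPM against at most 4.29, while CSMD1, a brain-expressed complement regulator, had 0 counts against at least 147 CPM in the other dogs. CFP and CSMD1 were named after their values were seen.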

How the data were processed

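RNA from FFPE scrolls was made into stranded, rRNA-depleted libraries. The authors trimmed reads (Trimmomatic 0.33), aligned them to canFam6 (HISAT2 2.1.0), counted them with featureCounts and deposited raw counts per gene; strand and multi-mapping settings are not given in the sources used here. One deposited table held 29993 genes in 18 libraries, and groups came from the labels. Tests used edgeR 4.0.16 (TMM factors over 18 libraries, filterByExpr, robust quasi-likelihood F test, Benjamini-Hochberg over all genes) on 17 dogs, with French bulldog 6 apart. DESeq2 1.42.0, limma-voom (limma 3.58.1), other normalizations, no filter, single dogs left out, French bulldogs 2 and 8 summed or left out, parts of the comparison group and a replicate block were alternatives. In these alternatives except limma-voom, and between boxers and Boston terriers, normalization used only the libraries fitted. Small shifts from this were not separated from those of the alternative itself. Correlations used log2 CPM (prior count 2) and two-sided permutation of dogs (100000 resamples, exact for 7 dogs), adjusted over 36 or 72 relations. The text names the 9 genes, the 3 genes most like each, and listed complement genes with an unadjusted p under 0.05, and beside these rules cell type markers and, after their values were seen, CFP and CSMD1; 1 gene that this rule names is not reported here. The members and lists were chosen with earlier results of these data known. On simulated counts for 10 against 7 dogs, edgeR recovered 16.5% of 2-fold, 80.7% of 4-fold and 93.9% of 8-fold changes over 16423, 16319 and 16435 genes. RefSeq (UU_Cfam_GSD_1.0) was used for gene order only.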

Additional observations from a re-analysis of the deposited data

Results flagged for a closer look

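French bulldog 6 was kept out of the comparisons. In it 7 of the 9 genes were above each of the other 17 dogs, an order that 20.9% of all genes tested also showed. These were C1QA at 643 CPM, C1QB at 811, C1QC at 1413, C3AR1 at 494, C3 at 801, SERPING1 at 139 and C5AR1 at 41.6 CPM. Among 27 groups of dogs searched for a far dog (the 9 genes in the 10 French bulldogs, the 7 comparison dogs and the 4 boxers), 1 had one. This was C3AR1 in Boston terrier 6, at 2.67 CPM, whose gap to the next dog was 0.650 of the range of the comparison group on the log2 scale. Chance marks about 1 in 20 such groups.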

How the results depend on the processing

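Each of the 9 genes stayed without an adjusted p under 0.05 in all 288 values refitted for the breed comparison, where the smallest adjusted p was 0.433. The number of genes called over the whole table was 3, and it changed to 76 with DESeq2, 58 with DESeq2 and French bulldog 6, 1 with French bulldog 6, 0 with French bulldogs 2 and 8 summed and 1 with them left out. It was 0 against boxers alone, 1 against Boston terriers alone, 0 against either library series (numbers 18 to 21 or 1 to 3), and 0 to 9 with single dogs left out: 9 without French bulldog 9, 5 without 11, 1 without 10, 2 without 4, 4 without boxer 1, 3 without Boston terrier 2 and 0 without each of the other 11. Between boxers and Boston terriers it was 0, also with each dog left out, and 39 with DESeq2.

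The sign turned for SERPING1 to -0.057 with limma-voom, -0.0057 against library numbers 18 to 21 and -0.034 without French bulldogs 2 and 8, for C3 to 0.48 with French bulldog 6, 0.53 with DESeq2 and French bulldog 6 and 0.015 without French bulldogs 2 and 8, and for C5AR1 to 0.98 with French bulldog 6. With limma-voom, C1QA was 0.24, C1QB 0.18 and C3 -0.53. C3AR1 was 0.019 against library numbers 18 to 21 and 0.74 against 1 to 3. With single dogs left out, SERPING1 ran from -0.12 to 0.14 and C3 from -0.57 to 0.025. Without French bulldog 1, C1QA was 0.25, C1QB 0.14, C1QC 0.27 and C3AR1 0.11. Without French bulldog 11, C1QA was 0.28, C1QB 0.19 and C3AR1 0.13. Without Boston terrier 6, C1QB was 0.22, C3AR1 0.10 and C5AR1 -0.39, and C3AR1 was 0.49 without boxer 4. None of these was called in any fit. With French bulldog 6 left out, French bulldogs and comparison dogs share 6 numbers in the labels, which pair nothing. Deviations of same-numbered dogs correlated between -0.46 and 0.20, and 1 of 6 dogs was closest to its own number. A replicate block on these numbers gave 0 calls and log2 fold changes of -0.021 for C1QA, -0.11 for C1QB, -0.22 for SERPING1 and -0.20 for C3AR1. It put 8 of the 9 genes down, with C3 at -1.18 (unadjusted p = 0.0418, adjusted p = 0.866) and C5AR1 at -1.09, while C1QC was at 0.19.

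Pairs of the 9 genes that passed numbered 12, 22 with French bulldog 6 and 5 within the comparison group. Relations with markers numbered 36, 22 without the 2 farthest dogs, 22 without French bulldogs 2 and 8, and 3 within the comparison group. C1R with CSF1R turned from 0.43 to -0.26 without the 2 farthest dogs, which are French bulldogs 2 and 8, and to -0.17 within the comparison group. C1R with COL1A2 was -0.26 and C3 with GFAP -0.076 within that group, and C3 with GFAP -0.14 with French bulldog 6. The causes of these changes were not tested.

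Depth limited C5AR1 most, with 0 to 71 reads in the 17 dogs. No value for French bulldog 6 has a replicate.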
